A study of Mus musculus with 22 samples.

Results

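Cwc22 and 6 of its copies on mouse chromosome 2 (Cwc22rt1, Cwc22rt2, Cwc22rt4, Cwc22rt5, Cwc22rt6 and Cwc22rt7) were followed across bulk RNA sequencing of CD11b+ brain cells, as 7 of the 56691 genes in the files. They were chosen by their measured levels, after earlier results of these data had shown large differences between HIE and control pups on P7, so their values on P7 are given as a description with no test. CWC22 is a protein of the spliceosome, the machine that removes introns from RNA. It carries the helicase eIF4A3 to the spliceosome, where eIF4A3 becomes the core of the exon junction complex, the protein mark left on a messenger RNA beside each joined pair of exons. That mark is later read by nonsense-mediated decay, the pathway that destroys messages with an early stop codon. The copies are intronless open reading frames that resemble the spliced Cwc22 message, and mouse strains are known to differ in how many copies of Cwc22 they carry.

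The files held 22 libraries of 20 animals in 5 groups of 4, all outbred CF-1 wildtype mice, and 2 P14 HIE animals had 2 libraries each, which were summed. In the HIE groups (P7 and P14) LPS was given to the dam on E18 (50 µg/kg) and hypoxia to the pups on P6 (8 min), and in the control groups (P7 and P14) saline and normoxia took their place. The P14 hypoxia group is given in the labels as hypoxia, and the study's text does not describe it. CD11b+ cells were isolated from dissociated whole brain on magnetic beads, and CD11b marks microglia and the other myeloid cells of the brain. Animals of CF-1, an outbred stock, are not genetically identical. Animals share name prefixes in pairs, called litters here, and each of the 10 litters belonged to 1 group, so no treatment was compared within a litter. On P14 each litter held 1 male and 1 female, whereas the P7 HIE pups were all male and the P7 controls were 2 males and 2 females. The labels give the 4 P7 controls the days P8, P9, P10 and P11, whereas the protocol gives P7, which is used here. The P7 and P14 libraries were deposited as separate batch tables, so day and batch cannot be told apart.

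Total counts per library were 29751540 to 46404123 on P14 and 70191584 to 83469067 on P7. Of 16 microglia markers 15 were found by name, and their summed level was 13700 to 24100 CPM (counts relative to the library total, adjusted with TMM factors) in the P7 HIE pups and all P14 animals and 11100 and 12400 CPM in the P7 control litter P6H55. It was 1780 and 1150 CPM in the P7 control litter P6H63, so marker RNA of the labelled cell type was low there. In P6H63 the summed markers of astrocytes were 4120 to 5100 CPM and those of endothelial cells 1850 to 2330 CPM, compared with 1340 to 1800 CPM and 704 to 943 CPM in the P7 HIE pups. In bulk RNA, fewer cells of a type and less RNA per cell cannot be told apart.

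The gene Cwc22 (ENSMUSG00000027014) lies on the minus strand of GRCm39 at chr2:77711503-77776736, and the annotation gives its canonical transcript 20 exons and 3427 bases. The copies begin 6074534 bases beyond the lower coordinate of Cwc22, which is the end of this minus-strand gene. They lie on the plus strand as a row of 7 genes with starts 5810 bases apart, from Cwc22rt1 at chr2:83786037-83788529 to Cwc22rt6 at chr2:83820897-83823389. The remaining gene of this row, Cwc22rt3 at chr2:83797657-83800149, was not among the chosen genes and is described beside them. Each copy has a single exon of 2493 bases that is one open reading frame. Against a spliced Cwc22 transcript of 21 exons, copy Cwc22rt1 aligned from its first base at the start codon of Cwc22 with 96.9% identity over 2514 columns, with 39 mismatches and 5 gaps. This stretch of the Cwc22 transcript spans 18 exon junctions, none of which interrupts the copy. The copies encode 830 codons before the stop and the Cwc22 transcript 908.

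The beginning of the reading frame shows how alike the genes are. Capitals mark bases that Cwc22 lacks, and the Cwc22 stretch is made of exon parts at chr2:77766937-77766963 and chr2:77763078-77763107 (minus strand), while that of Cwc22rt1 is at chr2:83786037-83786096 (plus strand).
Cwc22: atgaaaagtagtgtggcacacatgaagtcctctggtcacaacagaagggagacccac
Cwc22rt1: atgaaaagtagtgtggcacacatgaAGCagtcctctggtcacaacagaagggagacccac

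The copies differ most visibly from Cwc22 in a repeat of codons for acidic amino acids, and this is also the place where 1 copy differs from the others. Capitals mark, in Cwc22 (chr2:77747410-77747454, coding exon, minus strand) and Cwc22rt1 (chr2:83787297-83787356), the bases that differ between them or are missing in the other, and in Cwc22rt3 (chr2:83798917-83798976) the base that differs from Cwc22rt1.
Cwc22: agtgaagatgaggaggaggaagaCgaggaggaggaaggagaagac
Cwc22rt1: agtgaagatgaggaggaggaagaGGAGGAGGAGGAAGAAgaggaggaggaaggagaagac
Cwc22rt3: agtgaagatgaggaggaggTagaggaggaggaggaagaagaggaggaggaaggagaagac

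At the other end, the last bases of the copies match an inner part of the last Cwc22 coding exon (chr2:77726583-77726641 for Cwc22, chr2:83788470-83788529 for Cwc22rt1). The final tga is the stop codon of the copy, whereas the reading frame of Cwc22 continues past these letters. Capitals mark bases that differ or are missing in the other.
Cwc22: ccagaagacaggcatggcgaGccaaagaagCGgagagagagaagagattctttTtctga
Cwc22rt1: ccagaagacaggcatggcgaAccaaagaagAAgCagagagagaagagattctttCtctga

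Cwc22rt1, Cwc22rt2, Cwc22rt4, Cwc22rt5, Cwc22rt6 and Cwc22rt7 were identical over all 2493 bases in the reference genome. Cwc22rt3 differed from them by A1280T, counted from the first base of the copy with the base of Cwc22rt1 first. The annotation gives every copy except Cwc22rt6 a further transcript of 732 bases. Of the 2394 windows of 100 bases in Cwc22rt1, all also occurred in another copy and 21.4% also occurred in a Cwc22 transcript. In Cwc22rt3, 100 windows occurred in no other copy and in no Cwc22 transcript. RSEM, the program the authors used, divides a read that matches several transcripts among them. The count of a single copy is therefore uncertain, and the sum of the 7 chosen genes (the family sum) was used beside the single rows.

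The family sum fell into separate levels among the animals. In the order of the 20 animals, the lowest 11 lay between 29.4 and 37.6 CPM and the highest 9 between 177 and 682 CPM, and the step of 4.72-fold between them was larger than any other step in the order, the next largest being 1.62-fold. Neighbours among the lowest 11 differed by at most 1.1-fold, so their order is within the range of 1.02- to 1.21-fold seen between litter mates at that level. Among the highest 9, the animals from 565 to 682 CPM likewise differed from their neighbours by at most 1.08-fold.

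**Figure D1:**
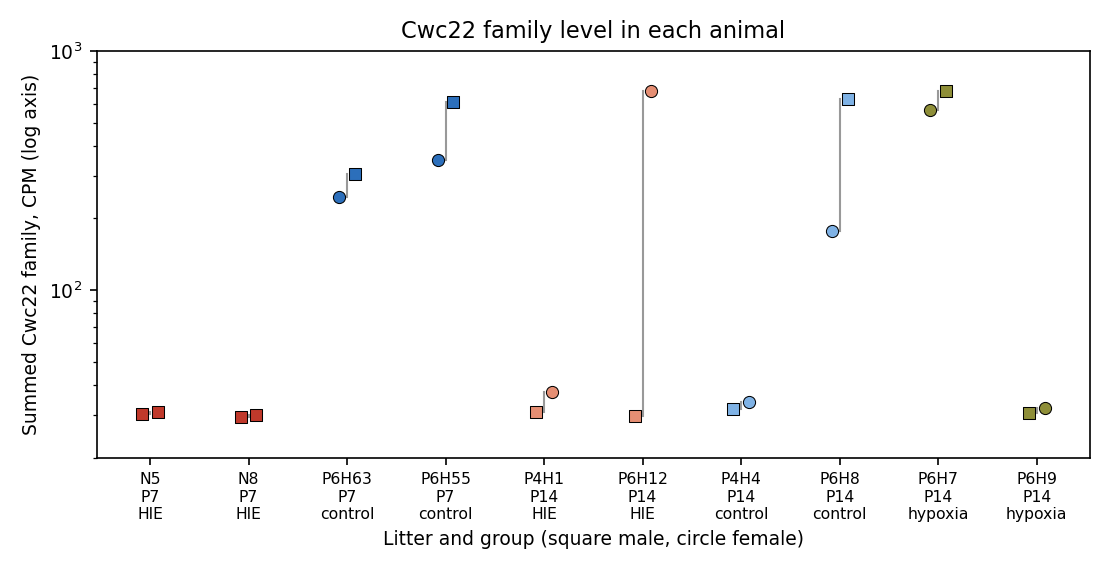
Summed level of Cwc22 and 6 copies in each animal (CPM, log axis) by litter and group, where squares are males, circles are females and a line joins litter mates. The P7 HIE pups sit between 29.4 and 31.0 CPM and the P7 controls between 246 and 613 CPM, and each P14 group holds animals near 30 CPM as well as an animal at 631 CPM or above.

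On P7, the family sum was 31.0, 30.5, 30.2 and 29.4 CPM in the HIE pups N5-3, N5-4, N8-3 and N8-4. It was 305 and 246 CPM in the controls P6H63-7 and P6H63-8 and 613 and 349 CPM in the controls P6H55-7 and P6H55-12. Every HIE pup was below every control, as was the case for 7.94% of the genes with a mean of at least 1 CPM. Since this contrast had chosen the genes, nothing is read from it. The mean of the HIE pups was 30.3 ± 0.704 CPM (SD, n = 4) and that of the controls 378 ± 162 CPM (SD, n = 4), and the difference of the mean log2 CPM was -3.55. The difference was -3.18 against P6H63 alone, the litter with low microglia marker RNA, and -3.93 against P6H55 alone. What part the other cell types of P6H63 had in its levels was not tested.

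Whether the animals differed in how many copies of Cwc22 they carry was not tested. As RSEM assigned the reads, the Cwc22 row made up most of the family sum. It was 28.2, 28.5, 27.4 and 27.0 CPM in the P7 HIE pups, in the order above, and 254, 206, 511 and 300 CPM in the P7 controls. Cwc22rt1 and, with equal values, Cwc22rt2, Cwc22rt4, Cwc22rt5 and Cwc22rt7 had 0.549, 0.396, 0.552 and 0.445 CPM in the HIE pups and 8.39, 6.71, 17.0 and 8.26 CPM in the controls. Cwc22rt6 had 0.0977 to 0.117 CPM in the HIE pups, which was 7.05 to 8.85 expected counts, and 6.61 to 17.0 CPM in the controls. The HIE pups lay below the controls for each of the 7 genes, as for 7.94% of the genes with a mean of at least 1 CPM. These 7 are not separate observations, since RSEM divided shared reads among them. The contrast had chosen the genes, so nothing is read from this.

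On P14 the same range of levels appeared inside every group. In the HIE animals the family sum was 31.0 and 37.6 CPM in litter P4H1, 29.7 CPM in the male P6H12-11M and 679 CPM in the female P6H12-14F. In the controls it was 31.8 and 34.1 CPM in litter P4H4, 177 CPM in the female P6H8-8F and 631 CPM in the male P6H8-7M. In the hypoxia group it was 30.7 and 32.1 CPM in litter P6H9 and 565 and 682 CPM in litter P6H7. The groups overlapped over nearly their whole ranges, with 1 HIE animal, 2 controls and 2 hypoxia animals above the step in the order of levels.

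The question for P14 was whether treatment moved the family. It did not pass the test in any of the P14 comparisons, in edgeR's quasi-likelihood test with Benjamini-Hochberg adjustment over all genes. The log2 fold change of the family sum was -0.17 in HIE against control (SE 1.22, n = 4 per group, edgeR adjusted p = 0.983) and 0.54 in hypoxia against the same control animals (SE 1.17, adjusted p = 0.917). Between HIE and hypoxia it was -0.75 (SE 1.25, adjusted p = 1). With an SE above 1 on the log2 scale, these fits could not have shown a difference of 2-fold, and they do not show that the groups were alike.

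Single animals decided these values. Without the HIE animal P6H12-14F, the log2 fold change was -2.76 against control (edgeR adjusted p = 0.371) and -3.34 against hypoxia (adjusted p = 0.862). Without the control P6H8-7M it was 1.26 for HIE (adjusted p = 0.917) and 1.96 for hypoxia (adjusted p = 0.584). Without the hypoxia animal P6H7-16M, hypoxia against control was -0.09 (adjusted p = 0.993) and HIE against hypoxia -0.11 (adjusted p = 1). Leaving out P4H1-1M, P4H1-6F or P6H12-11M turned HIE against control to 0.18 or 0.19 (adjusted p = 0.967 to 0.998).

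**Figure D2:**
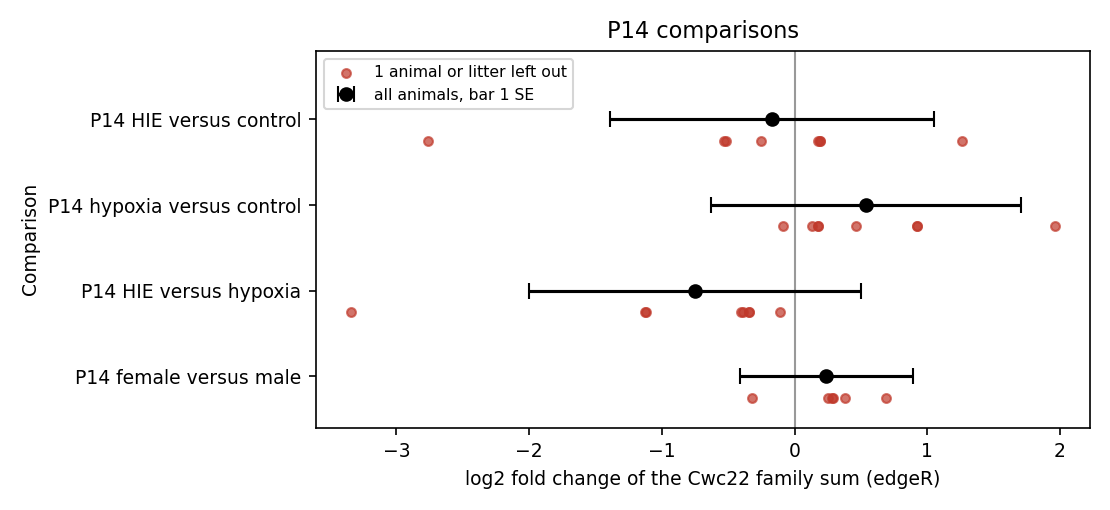
The log2 fold change of the family sum in each P14 comparison (edgeR), with all animals as a black point and a bar of 1 SE, and with 1 animal (or, for sex, 1 litter) left out as red points. Values for HIE against control run from -2.76 to 1.26 when single animals are left out, on both sides of 0.

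Of the 7 genes taken singly, 6 passed edgeR's filter on low counts in HIE against control and in HIE against hypoxia, and all 7 did in hypoxia against control. The gene left out was Cwc22rt6. None was called, at an adjusted or an unadjusted p-value of 0.05 or by DESeq2, where edgeR called 0.00478% of all genes tested in HIE against control and 0.00955% in either comparison with hypoxia. These shares rest on 1 and 2 genes. At an unadjusted p-value of 0.05 edgeR had 9.89% of all genes in HIE against control, 9.53% in hypoxia against control and 4.52% in HIE against hypoxia, and DESeq2 called 2.71%, 0.916% and 0.0716% of the genes it gave an adjusted p. For Cwc22 the log2 fold changes were -0.18 (SE 1.18) for HIE and 0.53 (SE 1.14) for hypoxia against control. For Cwc22rt1, and equally for Cwc22rt2, Cwc22rt4, Cwc22rt5 and Cwc22rt7, they were -0.12 (SE 1.47) and 0.62 (SE 1.42). Cwc22rt6 had 0.64 (SE 1.71) for hypoxia.

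Since each P14 litter held a female and a male, the sexes were compared within litters. The family sum was 37.6, 34.1, 32.1, 679, 177 and 565 CPM in the females of P4H1, P4H4, P6H9, P6H12, P6H8 and P6H7, and 31.0, 31.8, 30.7, 29.7, 631 and 682 CPM in their male litter mates. The female was higher in 4 of 6 litters, and both sexes covered the low and the high levels. The log2 fold change of female against male was 0.24 (SE 0.65, n = 6 per sex, edgeR adjusted p = 1), and none of the 7 genes was called, at an adjusted or an unadjusted p-value of 0.05 or by DESeq2, beside 0.0393% of all genes by edgeR, 3.04% unadjusted and 0.083% by DESeq2. Without litter P6H12 the value was -0.32 and without P6H8 it was 0.69 (adjusted p = 0.999 for both).

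Litter mates differed widely in only some litters. The animals of P6H12 differed by 4.51 on the log2 CPM scale, or 22.8-fold, and those of P6H8 by 1.83, or 3.56-fold. The P7 control litters P6H55 and P6H63 differed by 0.81 and 0.31. In the other 6 litters the difference was 0.02 to 0.28. Of 16873 other genes with a mean of at least 1 CPM, 25 differed as much as the family in P6H12 and 117 in P6H8, and in both litters the mates differed in sex. The 99th percentile of these genes was 1.39 in P6H12 and 1.64 in P6H8. Across all 12 P14 animals the family sum spanned 4.52 on the log2 scale, where the median gene spanned 0.83 and 156 genes spanned as much.

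**Figure D3:**
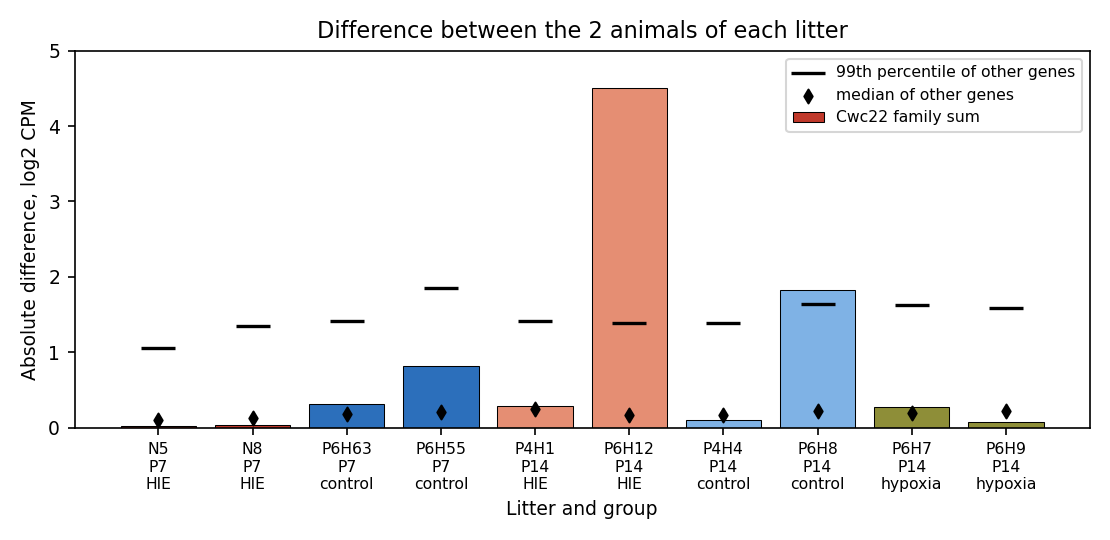
Absolute difference in log2 CPM between the litter mates of each litter for the family sum (bars), with the median (diamonds) and the 99th percentile (dashes) of 16873 other genes. The bars of P6H12 (4.51) and P6H8 (1.83) stand above the 99th percentile, and those of the other 8 litters below it.

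The level also differed by the start of the animals' names, which the sources do not explain. Animals named N (4 P7 HIE pups) had 29.4 to 31.0 CPM and those named P4H (4 P14 animals of the HIE and control groups) had 31.0 to 37.6 CPM. Animals named P6H had 246 to 613 CPM on P7 (4 controls) and 29.7 to 682 CPM on P14 (8 animals of all groups). All animals above the step were therefore named P6H, and 3 of the P14 animals so named were below it. On P7 these names go with treatment and cannot be told apart from it. On P14 the hypoxia animals were all named P6H, whereas the HIE and control groups each held animals named P4H and P6H. The comparisons with hypoxia are therefore unbalanced for these names. Only in HIE against control was P4H or P6H used as a block (log2 fold change -0.08).

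Purity of the preparation and repeat libraries were set beside these levels. In P6H12-14F and P6H12-11M the microglia markers summed to 15700 and 19800 CPM, and in P6H8-7M and P6H8-8F to 14200 and 18000 CPM. In litter P6H7, where the family sum was high, they summed to 23600 and 21300 CPM, and in litter P6H9, where it was low, to 17200 and 13700 CPM. The low P14 levels also repeated between libraries of 1 animal. In P4H1-6F the family sum was 31.5 CPM in one library and 35.4 CPM in the other, and in P6H12-11M 30.6 and 28.1 CPM. These values per library are relative to the library total without TMM factors. They are therefore not on the same scale as the levels per animal.

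The copies took a varying share of the family sum. Among the P14 animals their share was 4.4, 4.91 and 6.26% in P4H1-1M, P4H1-6F and P6H12-11M, 5.19 and 3.01% in the controls of P4H4 and 3.71 and 3.14% in the hypoxia animals of P6H9. It was 14.2% in P6H12-14F, 13 and 13.8% in P6H8-7M and P6H8-8F, and 13.6 and 13.9% in P6H7-16M and P6H7-8F. On P7 the share was 6.84 to 9.45% in the HIE pups and 14.2 to 16.7% in the controls. The 20 shares had a gap between 9.45% and 13%, with the same animals on each side of it as for the family sum. P6H8-8F, whose family sum of 177 CPM was the lowest of those above the step, had a share like that of its litter mate. The share is a ratio of counts that RSEM divided, so part of it depends on that division.

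**Figure D4:**
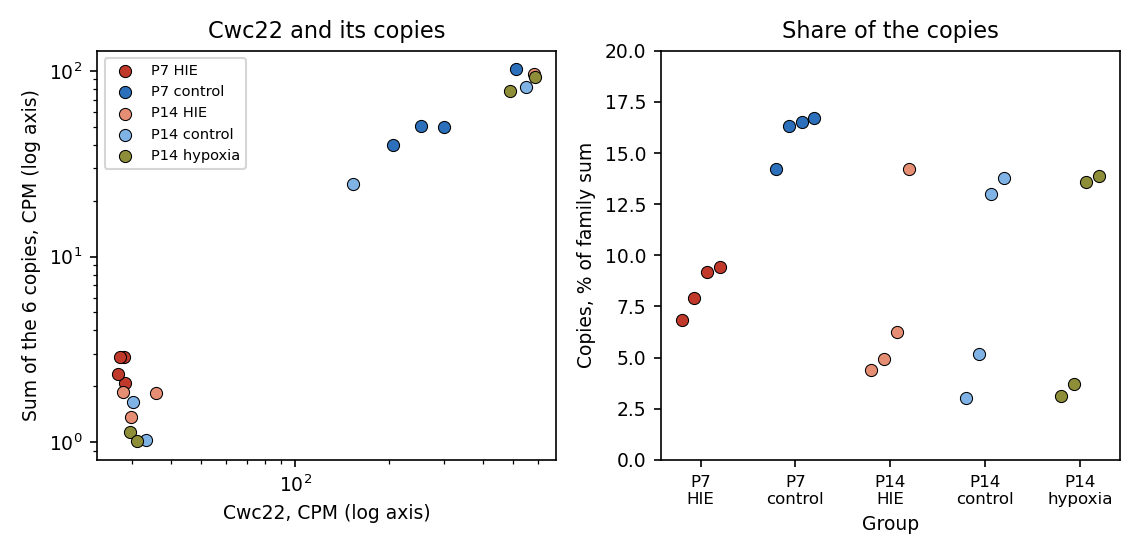
Left, the level of Cwc22 against the summed level of its 6 copies in each of the 20 animals (CPM, both axes log). Right, the copies as a percent of the family sum by group, with shares of 3.01 to 9.45% in the animals of low family level and 13 to 16.7% in those of high level.

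Per kilobase of the canonical transcript, Cwc22 stood far above each single copy in every animal. In P6H12-14F Cwc22 had 170 CPM per kb and Cwc22rt1 6.46, and in its litter mate P6H12-11M they had 8.13 and 0.148. In the P7 control P6H55-7 they had 149 and 6.84 CPM per kb, and in the P7 HIE pup N5-3 8.22 and 0.22. Cwc22 was thus above the copy on this scale in animals of either level, as RSEM assigned the reads. The value of a single copy is low in part because reads are divided among identical copies. In P6H12-14F the 6 copies together had 96.7 CPM, beside 582 CPM for Cwc22.

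The 6 copies of the family sum, identical in the reference, could not be separated by their sequence. Apart from Cwc22rt6, the other 5 copies of the family sum had equal expected counts, to 2 decimals, in all 20 animals, from 6.5 in P6H9-15F to 1224.75 in P6H55-7. Cwc22rt6, the copy without the annotated short transcript, equalled them in 7 animals, namely both animals of P6H7, P6H8 and P6H55 and P6H12-14F. It was under 1 count in the 7 low animals of P14, which is below the 3 counts used here as the detection floor. Cwc22rt3, the copy with A1280T, showed the opposite on P14. It equalled Cwc22rt1 in those 7 low animals, at 6.5 to 25.71 counts, and was at 0 in the other 5 P14 animals, where Cwc22rt1 had 139.98 to 531.79 counts. On P7, Cwc22rt3 was at 0 in all HIE pups and in P6H63-7, and had 44.52, 88.64 and 254.01 counts in P6H63-8, P6H55-7 and P6H55-12. Apart from reads over A1280T, these counts are RSEM's division of shared reads and do not show by themselves which copy a read came from.

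**Figure D5:**
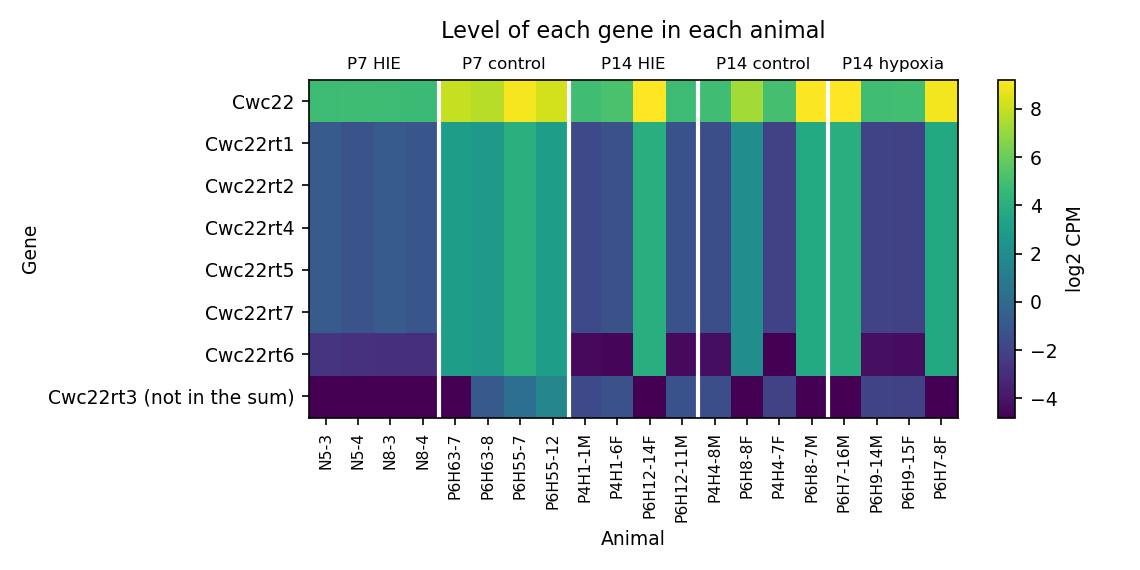
Level (log2 CPM, colour) of Cwc22, the 6 copies in the family sum and Cwc22rt3 in each animal, with groups set apart by white lines. The rows Cwc22rt1, Cwc22rt2, Cwc22rt4, Cwc22rt5 and Cwc22rt7 are identical, while Cwc22rt6 is near the bottom of the scale in the P14 animals of low level and Cwc22rt3 in those of high level.

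Few other genes differed between the animals in the same way and by as much as the family. Each gene was centred on its mean of each day, and the root-mean-square difference of its log2 CPM from that of the family sum was taken over the 20 animals, where a gene that did not vary would score 1.93 and the median of 16873 genes was 1.96. The score takes in the size of the differences as well as their order. It cannot tell how many genes share the order alone. The long noncoding RNA Gm42764 at chr5:30916376-30917821 came nearest with 1.26. Its log2 CPM was -4.35 to -1.01 in the P7 HIE pups and 1.04 to 2.54 in the P7 controls. On P14 it was 2.39 in P6H12-14F, 2.6 in P6H8-7M, 2.35 and 2.07 in P6H7-16M and P6H7-8F and 0.26 in P6H8-8F, and -4.8 to -0.78 in the other 7 animals. All animals above the family's step had more Gm42764 than all animals below it, at a mean of 1.88 CPM. Gm42764 was picked from 16873 genes for its closeness to the family in these same animals, so nothing is read from this division. The nearest values across that division were -0.78 in P6H12-11M and 0.26 in P6H8-8F. A wider step lay among the low animals, from -3.01 in P4H1-1M to -1.53 in N8-4, so the division is taken from the family. Low values of Gm42764 are near the floor, where -4.8 stands for 0 counts. The following genes were Col6a6 (1.5), Or51e1 (1.51), Amy1 (1.52), Gm26703 (1.53), Or51e2 and Gm49838 (1.6 each) and Gm9392, Gm44167 and D030047H15Rik (1.63 each). None of the 10 lies on chromosome 2, and 5 genes in all scored under 80% of the value of a gene that did not vary.

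Genes that work with CWC22 did not show its range. Of 12 genes of the exon junction complex and its partners, none passed edgeR's test at an adjusted p-value of 0.05 in any P14 comparison, at an unadjusted one, or with DESeq2. Eif4a3, the helicase that CWC22 carries, had a log2 fold change of 0.1 (SE 0.15) in HIE and 0.12 (SE 0.1) in hypoxia against control, and over all 20 animals its level was 45.3 to 82.7 CPM. Casc3, another core subunit of the complex, had 56.8 to 105 CPM, and Acin1, a partner protein, 124 to 209 CPM. The 12 genes spanned a median of 0.53 on the log2 scale over the P14 animals and at most 1.05, for Magohb.

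The spliceosome and decay lists gave a like picture. None of 22 proteins of the catalytic spliceosome passed in any P14 comparison, with edgeR at an adjusted or unadjusted p-value of 0.05 or with DESeq2. Prpf8, the protein at the heart of the spliceosome, had 301 to 487 CPM in the 20 animals, the helicase Snrnp200 175 to 248 CPM and the ubiquitin ligase Prpf19 60.6 to 115 CPM. The same held for 10 factors of nonsense-mediated decay. The helicase Upf1 had 76.1 to 155 CPM and the kinase Smg1, which phosphorylates UPF1, 178 to 534 CPM. In HIE against control the median log2 fold change was -0.04 for the exon junction list, 0.08 for the spliceosome list and 0.08 for the decay factors, beside 0.01 over all genes tested.

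Of 16 transcripts known as targets of nonsense-mediated decay, none passed edgeR's test in the P14 comparisons. At an unadjusted p-value of 0.05, 6 passed in HIE against control, 1 in hypoxia against control, 7 in HIE against hypoxia and 1 between the sexes, where 9.89%, 9.53%, 4.52% and 3.04% of all genes did. The median log2 fold change of the list was -0.28 in HIE against control and -0.27 in HIE against hypoxia, where that of all genes was 0.01 and -0.01. DESeq2 called Snhg1 (log2 fold change -0.58, adjusted p = 0.0288) and Snhg5 (-0.45, adjusted p = 0.0219) in HIE against control, host genes of small nucleolar RNAs that are named after their values were seen, beside 2.71% of all genes. The splicing regulators with the highest levels on the list, Hnrnpl, Srsf3 and Srsf6, had log2 fold changes of 0.06, -0.1 and -0.09 in that comparison (edgeR adjusted p = 0.895, 0.793 and 0.858).

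Genes near the family on chromosome 2 were looked at for position. Of 22 protein-coding genes whose lower coordinate lay within 2 Mb of that of Cwc22, 19 were tested in each P14 comparison. None was called by edgeR, with 4, 2, 0 and 2 at an unadjusted p-value of 0.05 in HIE against control, hypoxia against control, HIE against hypoxia and female against male, beside 9.89%, 9.53%, 4.52% and 3.04% of all genes. DESeq2 called Neurod1 in HIE against control (-0.95, adjusted p = 0.0179), named after its value was seen, beside 2.71% of all genes. Itprid2, Itga4 and Ube2e3, the neighbours with the highest levels, had log2 fold changes of 0.11, 0.22 and 0 in HIE against control (edgeR adjusted p = 0.731, 0.597 and 0.994). Between the litter mates of P6H12, where the family differed by 4.51, the 18 of these neighbours with a mean of at least 1 CPM differed by a median of 0.14 and at most 1.23. Over the animals of a day these neighbours spanned a median of 1.2 on P7 and 0.89 on P14 on the log2 scale. The widest span was that of Ift70a2, named after its values were seen, with 3.23 on P7 and 3.27 on P14.

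Of 66 protein-coding genes within 2 Mb of the copies, 27 to 30 were tested in a comparison and edgeR called none, with 5, 4, 0 and 1 at an unadjusted p-value of 0.05 in the same order and beside the same shares of all genes. DESeq2 called Ypel4 in HIE against control (-0.83, adjusted p = 0.0477), Calcrl in hypoxia against control (0.37, adjusted p = 0.0434) and Lrrc55 between the sexes (0.44, adjusted p = 0.033), named after their values were seen. DESeq2 called 2.71%, 0.916% and 0.083% of all genes in these comparisons. Ctnnd1, Itgav and Zdhhc5, which had the highest levels, had log2 fold changes of 0.15, 0.03 and 0.13 in HIE against control (edgeR adjusted p = 0.654, 0.954 and 0.694). The 24 of them with a mean of at least 1 CPM differed by a median of 0.15 between the mates of P6H12 and 0.2 between those of P6H8. The neighbour Gm28635, named after its values were seen, differed by 6.86 and 7.2 in these litters and by 7.38 and 7.93 in P4H1 and P6H7, where the family differed by 0.28 and 0.27.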

How the data were processed

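Per the study's methods, the authors aligned reads with STAR to the GRCm39 genome and obtained estimated counts per gene from RSEM, which divides reads shared between genes, and they deposited these expected counts without scaling, 1 column per library. The annotation release is not given in the sources used here. Of 56691 gene identifiers 56017 matched GENCODE M39, from which symbols, positions and transcript sequences were taken.

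Libraries of 1 animal were summed, the 7 rows of Cwc22 and its copies were summed, and the sums were rounded. P14 comparisons were tested with edgeR 4.0.16 (quasi-likelihood test, TMM, filterByExpr, Benjamini-Hochberg) in R 4.3.3, with litter as a block for sex, and with DESeq2 1.42.0 as an alternative, after a check on simulated counts. SE was derived from edgeR's F statistic. Log2 CPM used TMM factors over all 20 animals and a prior count of 2. The floor of 3 counts covers counting error only. The p-values of the treatment comparisons measure the spread between animals, with no term for litter. The 4 animals of each group came from 2 litters, so they are not independent replicates. The p-value for sex measures the spread within litters.

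The members and the lists were chosen with earlier results of these data known. Named were the members, the 10 genes with the smallest root-mean-square difference from the family sum and, in lists without a call, the 3 genes with the highest mean CPM. One gene that this rule would name is not reported here.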

Additional observations from a re-analysis of the deposited data

Results flagged for a closer look

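In groups of 4 animals, the gap between an end animal and its nearest neighbour was divided by the range of log2 CPM. This ratio was compared with Dixon's critical value, which chance passes in about 1 of 20 groups of independent, normally distributed values. The animals here were pairs of litter mates and the family sum fell into separate levels, so that rate need not hold. Among the 5 groups the P14 HIE animals passed the critical value, each time through the female P6H12-14F. Its values were above those of the other 3. The ratio was 0.925 for the family sum, 0.919 for Cwc22, 0.929 for each of Cwc22rt1, Cwc22rt2, Cwc22rt4, Cwc22rt5 and Cwc22rt7, and 0.986 for Cwc22rt6. These values are not separate observations, since they come from 1 library and from reads that RSEM divided among the genes.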

How the results depend on the processing

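Of 61 alternatives for the P14 tests, 55 kept the sign of the log2 fold change and 6 turned it, and in none was the family sum called (smallest edgeR adjusted p = 0.371). All 6 left out 1 animal or litter. In HIE against control these were 0.19 without P4H1-1M, 0.18 without P4H1-6F, 0.19 without P6H12-11M and 1.26 without P6H8-7M, in a range of -2.76 to 1.26. In hypoxia against control, the value was -0.09 without P6H7-16M, in a range of -0.09 to 1.96. HIE against hypoxia ranged from -3.34 to -0.11. Female against male was -0.32 without litter P6H12, in a range of -0.32 to 0.69. The other alternatives were size factors of DESeq2, library size only, no filter on low counts, DESeq2, all P14 animals in 1 fit, the first library of each animal, Cwc22 alone, the name prefix as a block (-0.08 in HIE against control) and, added after seeing the data, Cwc22rt3 in the sum. Counts of genes called over the whole table moved by more than 1.5 times under DESeq2, from 1 to 490 in HIE against control, 2 to 162 in hypoxia against control, 2 to 15 in HIE against hypoxia and 9 to 19 between the sexes, and the cause was not tested. With 1 animal or litter left out they were 0 to 6, 1 to 7, 1 to 3 and 7 to 8 in the same order (6 in HIE against control without P6H8-7M, 7 in hypoxia against control without P6H8-7M or P6H9-14M), and under the other edgeR settings 0 to 3, 0 to 3, 0 to 5 and 9 to 16. On P7 the difference stayed between -3.93 and -3.18 over 14 alternatives. The shifts from the main value of -3.55 were within 0.4, the value used here as the spread between pups on the log2 scale. The SD of log2 CPM was 0.03 in the HIE pups and 0.56 in the controls. No paired analysis was possible between treatments, because replicate numbers name animals and pair none across groups, and without the litter block the difference between the sexes was 0.10. Depth limits Cwc22rt6, whose low P14 values lay under 3 counts.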
